A study of Mus musculus with 36 samples.

Results

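A set of 9 genes of the osteoblast programme was described in cultured mouse mesenchymal stem cells (MSCs) of 4 tissues. They are the transcription factor genes Sp7, Dlx3, Dlx5 and Dlx6 and the product genes Alpl, Bglap, Bglap2, Phex and Sost. They were chosen by name, and all 9 were found among the 24411 genes quantified in each library. Of these, 8 passed the filter on low counts, along with 12509 genes in all, and Sost did not.

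MSCs were grown from femoral bone marrow (fBM-MSCs), vertebral bone marrow (vBM-MSCs), adipose tissue (A-MSCs) and lung (P-MSCs). RNA-seq was analysed in 3 fBM-MSC, 2 vBM-MSC, 3 A-MSC and 3 P-MSC libraries, and the vBM-MSC library of replicate 3 was not used here. ATAC-seq, which maps accessible chromatin with a transposase, gave 1 pooled list of regions per tissue. All cells came from untreated wild-type C57BL6/J mice, 8 weeks old, and the 4 tissues were taken from the same 3 mice. Marrow cells were released by crushing the bones and adipose and lung cells with collagenase. Every culture was seeded in MesenCult medium with MesenPure and a Rock inhibitor on collagen-coated dishes and used within 3 passages. The groups are therefore adherent cultures, for which no sort is described, and no osteogenic medium is described. Which libraries shared a mouse is not stated, so the libraries were treated as independent and the p-values measure the spread between them.

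Osteoblasts are the cells that make bone, and they arise from mesenchymal progenitors under the control of Runx2 and then Sp7. Distal-less homeodomain proteins of the Dlx family act in the same lineage, in the skeleton of the face and limbs above all. Maturing osteoblasts make alkaline phosphatase and osteocalcin, and those that become buried in the matrix turn into osteocytes, which make Phex and sclerostin. In the mouse, osteocalcin is encoded by Bglap and its neighbour Bglap2, with Bglap3 beside them.

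Depth ranged from 19569650 to 40517739 expected counts per library, lowest in fBM-MSC replicate 1. Levels are given as TPM, RSEM's transcript abundance scaled for length and to the same sum in every library. Of the 4 genes of positive surface markers, the 3 with the highest levels, Itgb1, Cd44 and Ly6a, were present in each tissue. Ptprc, the leukocyte marker CD45, reached at most 0.35 TPM in any library. The 3 negative surface markers, Cd34 among them, summed to 79.2, 72.7 and 10.3 TPM in the fBM-MSCs and 1.19 to 7.87 elsewhere. The fBM-MSC libraries were unequal for bone genes. Replicate 3 was the highest of the 3 for 9 of the 9 members, against 35.0% of all tested genes. Of the vBM-MSC libraries, replicate 2 was above replicate 1 for 8 of the 9 members, against 67.4% of all tested genes. The calls of named genes between marrow and other MSCs and within marrow were recomputed without each library in turn, and changes are given beside them.

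**Figure D1:**
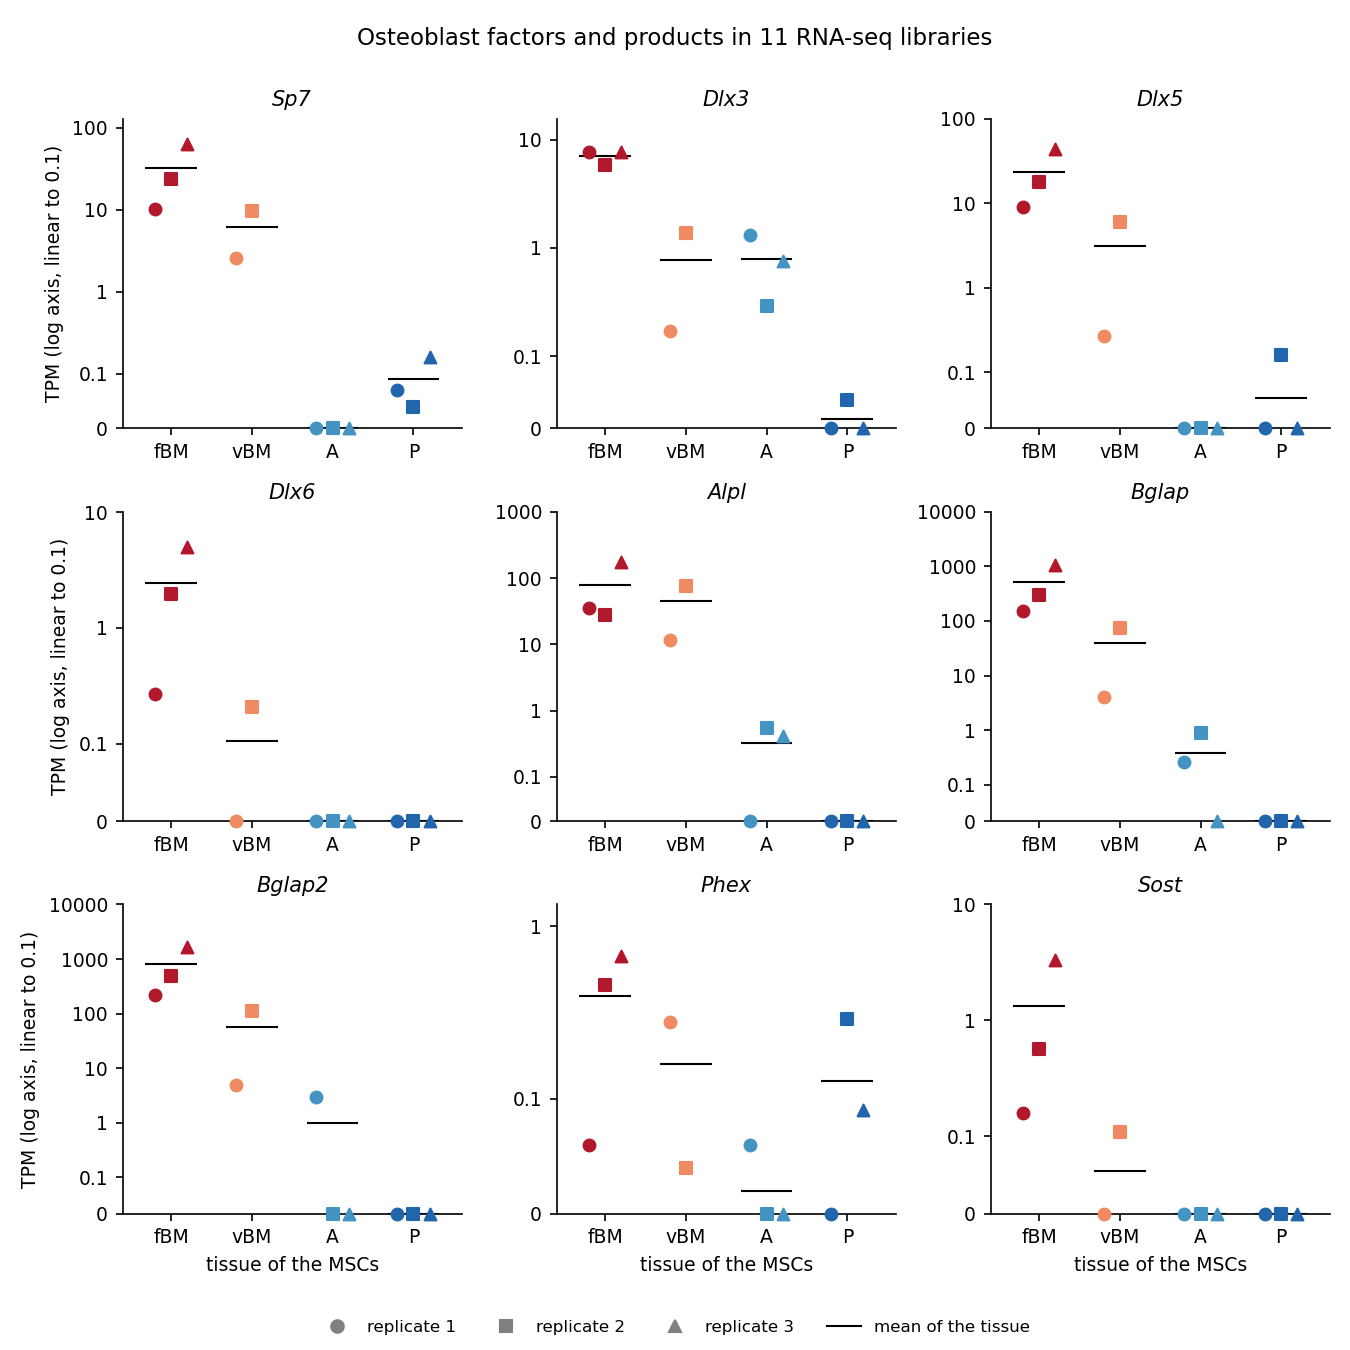
TPM of the 9 genes (log axis, linear between 0 and 0.1) in each of the 11 RNA-seq libraries, with a panel per gene, a symbol per replicate number and a bar at the mean of each tissue. Bglap and Bglap2 exceed 1000 TPM in fBM-MSC replicate 3 and are at 0 in the 3 P-MSC libraries, while the Phex values of bone marrow and non-bone marrow MSCs overlap.

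In the comparison of bone marrow with non-bone marrow MSCs, 7 of the 8 tested members were higher in bone marrow MSCs and none was lower (edgeR quasi-likelihood F test, adjusted p under 0.05). Of all tested genes, the test called 24.8% higher and 22.4% lower in that comparison. The 7 were Sp7, Dlx3, Dlx5, Dlx6, Alpl, Bglap and Bglap2, and Phex did not pass (adjusted p = 0.12). All of the 7 but Dlx3 reached 1 CPM in bone marrow libraries only. They passed the filter through the group where they were high, so their direction was largely set by it. For 5 members, Sp7, Dlx5, Alpl, Bglap and Bglap2, every bone marrow library lay above every non-bone marrow library, which 10.4% of tested genes did. Without fBM-MSC replicate 3 and vBM-MSC replicate 2, for most members the highest library of each marrow tissue, 6 members were higher and Dlx6 could not be tested, since it fell under the filter. In these bulk cultures, more cells of an expressing type and more RNA per cell cannot be told apart.

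Sp7, the zinc finger factor osterix that commits cells to the osteoblast lineage, lies on chromosome 15 (mm10, 102356603 to 102366333, minus strand) and has 2 exons. Its TPM was 10.12, 23.67 and 64.33 in the fBM-MSCs (replicates 1 to 3) and 2.62 and 9.71 in the vBM-MSCs (replicates 1 and 2). It was at 0 in the 3 A-MSC libraries and at 0.07, 0.04 and 0.16 in the P-MSCs. The bone marrow libraries did not overlap the others. A total of 5384 expected counts in bone marrow MSCs stood against 14 in non-bone marrow MSCs, a 524-fold ratio of mean CPM (counts scaled to library size, adjusted p = 1.54e-05). Leaving out replicate 3 of the fBM-MSCs gave a ratio of 268, and leaving out replicate 3 of the P-MSCs 1043.6. The lowest fBM-MSC library was only slightly above the highest vBM-MSC library, and the difference of these 2 tissues did not pass (5.65-fold in mean CPM, adjusted p = 0.0612), with ratios of 2.87 to 12 on leaving out 1 library. Without fBM-MSC replicate 1, without vBM-MSC replicate 2, or without fBM-MSC replicate 3 and vBM-MSC replicate 2 together, it did (adjusted p = 0.0199, 0.0468 and 0.0246). The last 2 values rest on 1 vBM-MSC library, which is assumed to vary like the other groups. Aaas, the protein-coding gene next to Sp7 and on the same strand, did not differ between marrow and non-marrow MSCs by the test (log2 fold change 0.15 ± 0.09 SE, adjusted p = 0.209).

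Dlx3, a homeodomain factor of bone, tooth and skin appendages, lies on chromosome 11 (95120117 to 95125296, plus strand, 3 exons). It was the member with the most even fBM-MSC libraries, at 7.70, 5.88 and 7.74 TPM. The vBM-MSCs had 0.17 and 1.38 TPM, the A-MSCs 1.31, 0.29 and 0.75, and the P-MSCs 0, 0.04 and 0. The vBM-MSC and A-MSC values thus overlapped, while each fBM-MSC library was above every other library. The log2 fold change of bone marrow against non-bone marrow MSCs was 4.48 ± 0.67 (SE, adjusted p = 0.000224). It ranged from 3.45 to 5.74 over all leave-outs of 1 library. fBM-MSCs exceeded A-MSCs by 3.12 ± 0.73 on the log2 scale (adjusted p = 0.00566). vBM-MSCs and A-MSCs did not differ by the test, with a difference of -0.17 ± 0.79 (adjusted p = 0.902) that turned to 0.63 without vBM-MSC replicate 1 and to 0.40 without A-MSC replicate 1. Dlx3 was the only member called between A-MSCs and P-MSCs, with 132 expected counts in A-MSCs and 2 in P-MSCs (adjusted p = 0.00208). Over all tested genes, 16.0% were higher in A-MSCs than in P-MSCs. Sp7, lower in A-MSCs at 0 counts against 14 in P-MSCs, passed there without fBM-MSC replicate 3 (adjusted p = 0.0469), giving 2 members called. Leaving it out with vBM-MSC replicate 2 gave 3, 2 of them higher in A-MSCs.

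Dlx5 and Dlx6 are a convergent gene pair on chromosome 6, Dlx5 at 6877801 to 6882068 (minus strand, 3 exons) and Dlx6 at 6863334 to 6867970 (plus strand, 4 exons). Both encode homeodomain factors that pattern the lower jaw and are made in osteoblasts. Dlx5 was at 9.09, 17.78 and 44.32 TPM in the fBM-MSCs and at 0.27 and 5.97 in the vBM-MSCs. It was at 0 in 5 of the 6 non-bone marrow libraries, and P-MSC replicate 2 had 4 expected counts (0.16 TPM). The bone marrow libraries did not overlap the others, although vBM-MSC replicate 1 came close to P-MSC replicate 2. The ratio of mean CPM was 633, on 2105 expected counts against 4 (adjusted p = 0.000196), and 330 without fBM-MSC replicate 3. Dlx6 was lower, at 0.27, 1.97 and 5.04 TPM in the fBM-MSCs and 0 and 0.21 in the vBM-MSCs, and it had no count in the 6 non-bone marrow libraries. Against a floor of 3 counts over those 6 libraries it was at least 61.2-fold higher in bone marrow MSCs (adjusted p = 0.0161), and at least 24.1-fold without fBM-MSC replicate 3. That call was lost without vBM-MSC replicate 2 (adjusted p = 1.0), where the remaining vBM-MSC library had no count, and without fBM-MSC replicate 2 or 3 the gene fell under the filter.

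The antisense gene Dlx6os1 overlaps Dlx6 and had 328 expected counts in the 3 fBM-MSC libraries and 12 in the vBM-MSCs. In the A-MSCs it had none, and in the P-MSCs 2. In the fBM-MSCs its TPM was 0.24, 0.86 and 2.25, in the same order of libraries as that of Dlx6. The library protocol keeps no strand, so reads of the overlap cannot be assigned to either gene with certainty. The second antisense gene there, Dlx6os2, had no count in any library.

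**Figure D2:**
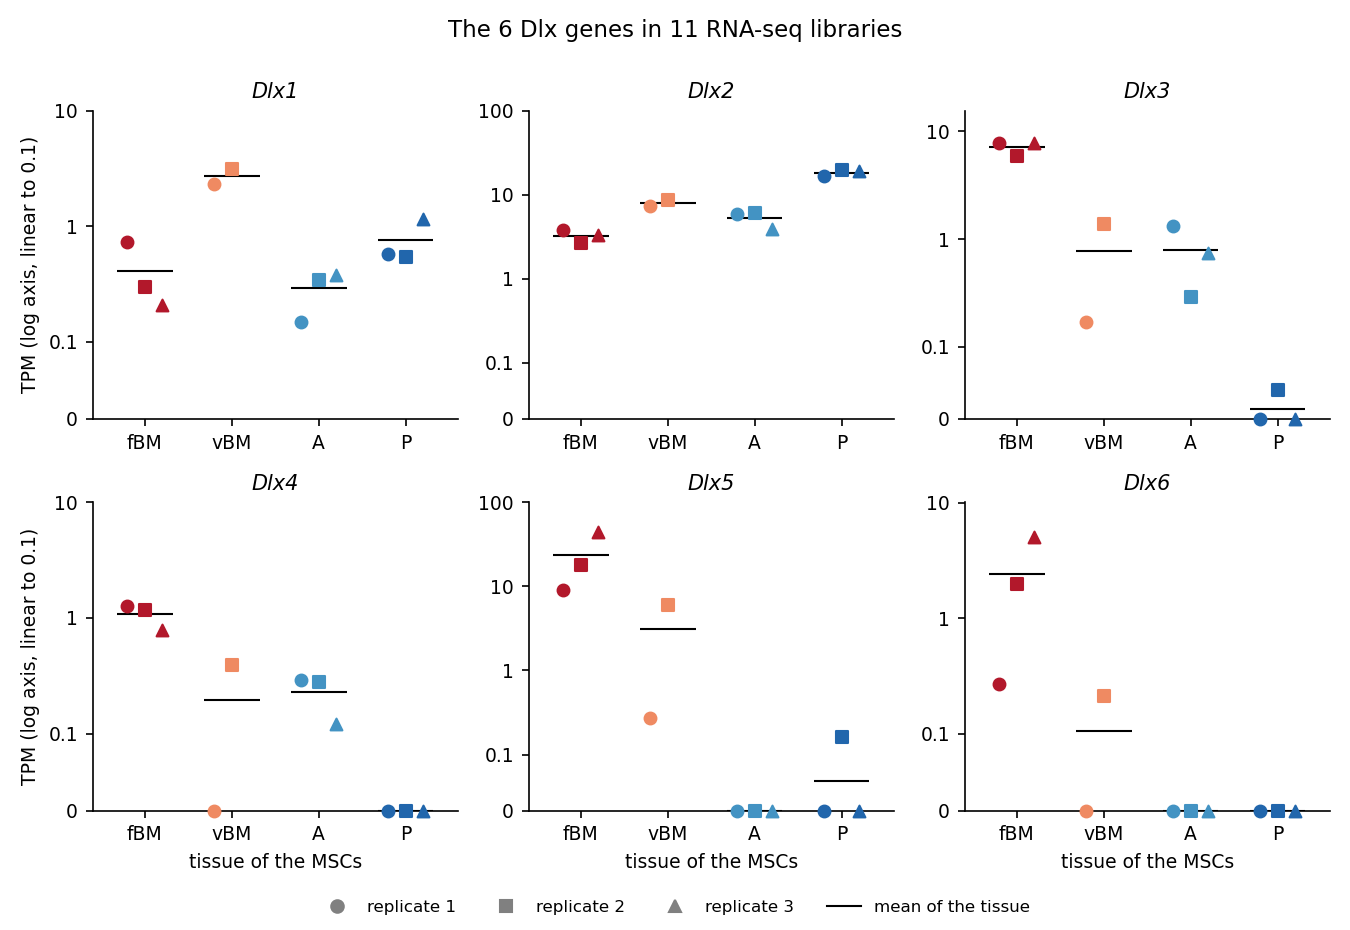
TPM of the 6 Dlx genes (log axis, linear between 0 and 0.1) in the 11 RNA-seq libraries, with a symbol per replicate number and a bar at the tissue mean. Dlx3, Dlx5 and Dlx6 have their highest means in fBM-MSCs, Dlx1 in vBM-MSCs and Dlx2 in P-MSCs.

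Of the other measured genes of the family, Dlx2 and Dlx1 had another pattern and Dlx4 also had its highest mean in fBM-MSCs. Dlx2, at 16.73, 19.43 and 18.90 TPM in the P-MSCs and 3.85, 2.66 and 3.28 in the fBM-MSCs, was lower in bone marrow MSCs (log2 fold change -0.95 ± 0.16, adjusted p = 0.00053). It was also lower in fBM-MSCs than in vBM-MSCs (log2 fold change -1.24 ± 0.23, adjusted p = 0.00679). Dlx1 averaged 0.413 ± 0.278 TPM over the 3 fBM-MSC libraries and 2.71 ± 0.544 over the 2 vBM-MSC libraries (mean ± SD), and it too was lower in fBM-MSCs (log2 fold change -2.68 ± 0.70, adjusted p = 0.0297). That call was lost without fBM-MSC replicate 2 or 3 or either vBM-MSC library (adjusted p = 0.0661 to 0.0951). Dlx4, the neighbour of Dlx3, stood at 1.27, 1.18 and 0.78 TPM in the fBM-MSCs and had no count in the P-MSCs. It was higher in bone marrow than in other MSCs (adjusted p = 0.0136), and its difference between the marrow tissues did not pass (adjusted p = 0.252). Without vBM-MSC replicate 2 the first call was lost (adjusted p = 1.0) and the second gained (0.0421). Runx2, the master factor upstream of Sp7, was measured in every library, at 5.40, 7.89 and 12.48 TPM in the fBM-MSCs, 2.55 and 4.54 in the vBM-MSCs, 2.40, 4.23 and 3.04 in the A-MSCs and 2.30, 2.96 and 2.94 in the P-MSCs. Its fBM-MSC libraries lay above all others and its vBM-MSC libraries overlapped the non-bone marrow MSCs, although replicate 2 was above the highest of them. The log2 fold change was 0.84 ± 0.23 between marrow and non-marrow MSCs (adjusted p = 0.00941) and 1.31 ± 0.35 between fBM-MSCs and vBM-MSCs (adjusted p = 0.0324). The latter call was lost without fBM-MSC replicate 2 (adjusted p = 0.0559), fBM-MSC replicate 3 (0.0714) or vBM-MSC replicate 1 (0.216), and the former without fBM-MSC replicate 3 and vBM-MSC replicate 2 together (0.0682).

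Alpl encodes tissue-nonspecific alkaline phosphatase, the enzyme that breaks down pyrophosphate and so allows mineral to form. It lies on chromosome 4 (137741731 to 137796384, minus strand, 12 exons) and has 2 annotated start sites. Its TPM was 35.64, 27.57 and 173.32 in the fBM-MSCs and 11.61 and 76.88 in the vBM-MSCs. The A-MSCs had 0, 0.54 and 0.42 TPM and the 3 P-MSC libraries none. vBM-MSC replicate 2 lay above fBM-MSC replicates 1 and 2, so the marrow tissues overlapped. The ratio of mean CPM between marrow and non-marrow MSCs was 361, on 17705 expected counts against 62 (adjusted p = 4.96e-05). It was 205 without fBM-MSC replicate 3 and 679 without A-MSC replicate 2. Between fBM-MSCs and vBM-MSCs the log2 difference was 0.95 ± 0.94 (adjusted p = 0.561), and without fBM-MSC replicate 3 it was -0.38. Alpl, Phex and Dlx6 were the tested members whose difference between the marrow tissues did not pass under any leave-out of 1 library that kept the gene.

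Bglap and Bglap2 lie in tandem on chromosome 3, at 88383495 to 88384466 and at 88377736 to 88378701, each on the minus strand with 4 exons. Their transcripts are 97.3% identical and share a run of 241 bases, so RSEM had to split reads between them by its model. Bglap was at 154.95, 301.76 and 1064.90 TPM in the fBM-MSCs, 4.10 and 73.74 in the vBM-MSCs, 0.26, 0.90 and 0 in the A-MSCs and 0 in the 3 P-MSC libraries. Bglap2 was at 223.90, 490.36 and 1672.72 TPM in the fBM-MSCs, 4.97 and 111.29 in the vBM-MSCs, and 0 in the P-MSCs. Of the A-MSCs, only replicate 1 had Bglap2 counts, at 3.03 TPM, not far under the 4.97 TPM of vBM-MSC replicate 1. Bglap took 41.8, 39.1 and 39.8% of the counts of the pair in the fBM-MSCs and 46.1 and 40.8% in the vBM-MSCs, a nearly constant share while their sum moved widely. Bglap3 remained low, at 1.13, 1.18 and 4.25 TPM in the fBM-MSCs and no more than 0.21 TPM elsewhere.

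Because the split is uncertain, the counts of Bglap, Bglap2 and Bglap3 were also summed as 1 osteocalcin feature. The sum was 1082, 3488 and 15073 expected counts in the fBM-MSCs, 40 and 864 in the vBM-MSCs, 17, 5 and 0 in the A-MSCs and 2, 0 and 0 in the P-MSCs. As TPM the vBM-MSC libraries reached 9.07 and 185.24, and the fBM-MSC libraries 379.98, 793.30 and 2741.87, with no overlap. The sum was higher in bone marrow than in non-bone marrow MSCs (log2 fold change 9.46 ± 1.05, adjusted p = 2.68e-05) and in fBM-MSCs than in vBM-MSCs (3.97 ± 1.08, adjusted p = 0.0341). The latter call was lost without fBM-MSC replicate 3 (adjusted p = 0.0719), vBM-MSC replicate 1 (0.128) or any single P-MSC library (0.0531 to 0.0679).

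The sequence upstream of Bglap is shown because the RUNX letters TGTGGT, a binding site of the Runx2 family, were found in it, read here on the other strand as ACCACA and set in capitals. The 250 bases before the start site (RefSeq, GRCm38.p6, chr3:88384467-88384716, minus strand) hold it once, beginning at -132 from the start.
Bglap upstream: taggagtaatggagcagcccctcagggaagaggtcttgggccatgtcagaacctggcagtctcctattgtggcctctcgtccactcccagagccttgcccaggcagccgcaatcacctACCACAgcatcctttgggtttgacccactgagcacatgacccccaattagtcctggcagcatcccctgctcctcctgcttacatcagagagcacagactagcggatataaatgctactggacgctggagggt
Of all RefSeq promoters of 300 bases, 16.8% hold these letters on either strand. Homeodomain letters (TAATTA, in 5.29% of promoters) and the GC box GGGCGG, which SP family factors bind (35.7%), were not in the Bglap promoter, and the GC box was found in the upstream promoter of Alpl. Promoter sequences of 300 bases were not searched for Sp7, Dlx3, Dlx5, Dlx6 and Bglap2. Windows of 201 bases centred on ATAC-seq summits were searched at 4 of these promoters. That of Bglap2 held the RUNX letters once, that of Dlx3 the GC box, and that of Dlx5 none of the 3 motifs. At Dlx6 the window of the region on the fBM-MSC and A-MSC lists held none, and the window of a region on the A-MSC list alone held the GC box once. A match describes letters only.

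Phex encodes an endopeptidase of osteoblasts and osteocytes that keeps phosphate in the body, and its loss causes X-linked hypophosphatemia. It lies on the X chromosome (157162075 to 157415286, minus strand, 22 exons). Expected counts were 5, 63 and 106 in the fBM-MSCs, 34 and 6 in the vBM-MSCs, 8, 0 and 0 in the A-MSCs and 0, 39 and 13 in the P-MSCs. No library exceeded 0.67 TPM, and the marrow and non-marrow values overlapped. The log2 fold change was 2.36 ± 1.18 (adjusted p = 0.12). Over all leave-outs of 1 library it ranged from 1.33 to 4.67. The highest value, without A-MSC replicate 1, passed the test (adjusted p = 0.0412). It was the single member with a higher value in vBM-MSC replicate 1 than in replicate 2, and between fBM-MSCs and vBM-MSCs its log2 difference of 1.31 ± 1.71 (adjusted p = 0.664) turned to -0.13 without fBM-MSC replicate 3 and vBM-MSC replicate 2.

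Sost encodes sclerostin, the Wnt inhibitor that osteocytes release, and lies on chromosome 11 (101962458 to 101967015, minus strand, 2 exons). It had 4, 23 and 157 expected counts in the fBM-MSCs (0.16, 0.57 and 3.29 TPM), 0 and 5 in the vBM-MSCs and none in the 6 non-bone marrow libraries. Only fBM-MSC replicate 3 reached 1 CPM, so the gene was not tested. Against a floor of 3 counts over the 6 libraries it was at least 76.7-fold higher in bone marrow MSCs, and at least 19-fold without fBM-MSC replicate 3, which held 157 of its counts. With no filter on low counts, edgeR gave an adjusted p of 0.005, and 0.0124 with the filter of filterByExpr. The adjacent gene Dusp3 had a log2 fold change of -0.02 ± 0.10 between marrow and non-marrow MSCs (adjusted p = 0.911). Between the marrow tissues it was higher in fBM-MSCs (0.72 ± 0.15, adjusted p = 0.0115), a call lost without vBM-MSC replicate 1 (0.0992).

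Within bone marrow, the fBM-MSC mean was the higher for all 9 members, but the test called only Bglap and Dlx3. Of all tested genes, 5.24% were higher and 7.56% lower in fBM-MSCs. For 7 members, all but Alpl and Phex, the fBM-MSC libraries did not overlap the vBM-MSC libraries, as for 15.4% of tested genes. In mean CPM, Dlx3 was 9.97-fold, Bglap 15.3-fold and Bglap2 16.2-fold higher in fBM-MSCs. Without vBM-MSC replicate 1 these ratios were 5.67, 8.22 and 8.54, and without vBM-MSC replicate 2 they were 41.4, 115 and 148. Without fBM-MSC replicate 3 they were 9.52, 6.64 and 6.95. The adjusted p was 0.0302 for Dlx3, 0.0457 for Bglap and 0.0634 for Bglap2, which passed without fBM-MSC replicate 1 (0.0411). These calls were fragile. With a term for replicate number in the model, Dlx3 did not pass (adjusted p = 0.0713) and Sp7 did (0.0187). Bglap was lost on leaving out fBM-MSC replicate 2 (adjusted p = 0.0603), fBM-MSC replicate 3 (0.0949), vBM-MSC replicate 1 (0.155) or any single A-MSC or P-MSC library (0.0535 to 0.0666). Dlx3 was lost without fBM-MSC replicate 1 (0.0558), fBM-MSC replicate 2 (0.0549) or vBM-MSC replicate 1 (0.137). Conversely, 5 members were called without vBM-MSC replicate 2, and also 5 without it and fBM-MSC replicate 3: Sp7, Dlx3, Dlx5, Bglap and Bglap2 in the latter case. The vBM-MSCs are then 1 library, whose spread is taken from the other groups. With replicate 3 of the vBM-MSCs not used, replicates 1 and 2 decided the vBM-MSC level, and they differed by 3.71-fold for Sp7, 22.1-fold for Dlx5, 6.62-fold for Alpl and 22.4-fold for Bglap2.

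**Figure D3:**
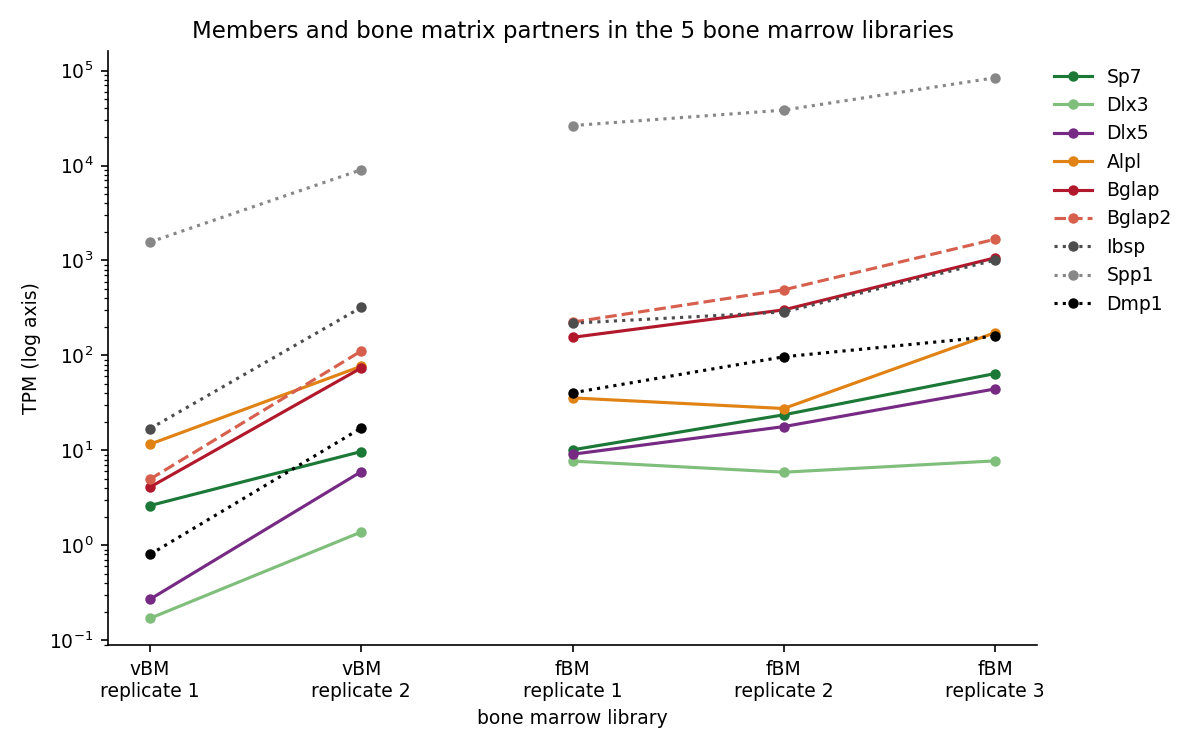
TPM (log axis) of 6 members (solid or dashed lines) and the matrix genes Ibsp, Spp1 and Dmp1 (dotted) in the 2 vBM-MSC and 3 fBM-MSC libraries, where the lines only link values of the same gene within a tissue and replicates have no order. vBM-MSC replicate 1 is the lowest of the 5 libraries for all 9 genes and fBM-MSC replicate 3 the highest, while Dlx3 stays between 5.88 and 7.74 TPM in fBM-MSCs.

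Each marrow tissue was also compared with each non-marrow tissue. fBM-MSCs were higher than A-MSCs in 7 members and than P-MSCs in 7, against 20.6 and 24.7% of all tested genes, and the member that did not pass was Phex in both cases. Against A-MSCs, Phex passed without A-MSC replicate 1 (adjusted p = 0.038), without P-MSC replicate 1 (0.0494) and with DESeq2 (0.0276). vBM-MSCs were higher than A-MSCs in 5 members, Sp7, Dlx5, Alpl, Bglap and Bglap2 (13.2% of all tested genes), and higher than P-MSCs in those 5 and Dlx3 (21.0% of all tested genes). Without vBM-MSC replicate 2, the other vBM-MSC library being assumed to vary like the rest, 2 members remained higher than in A-MSCs and 3 than in P-MSCs. Without A-MSC replicate 3, 3 were higher than in A-MSCs. These comparisons share libraries and are not independent of each other. Sp7, Dlx5, Dlx6, Alpl, Bglap and Bglap2 had also passed the filter through bone marrow libraries alone.

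The genes whose profile was most like that of a member, by the root mean square difference of centred log2(TPM + 1) over the 11 libraries, included bone matrix genes for Bglap and Bglap2, whose profiles are not independent of each other. For Bglap the nearest were Spp1, Ibsp and Dmp1, at 0.65, 0.85 and 0.99, where Bglap itself lay 3.73 from its own mean. For Bglap2 they were Ibsp, Spp1 and Dmp1. For Sp7 they were Cd200, the Wnt-binding protein gene Sfrp4 and the parathyroid hormone receptor gene Pth1r, at 0.40, 0.45 and 0.45. For Alpl they were Sfrp4, Serpine2 and Ank, which exports pyrophosphate, the substrate of Alpl. Dlx5 was nearest to Insc, Nt5e and Fcer1g, Dlx6 to Tnfaip8l3, Tnfrsf19 and Adgra1, and Dlx3 to Car8, Psma8 and Loxl3. The nearest to Phex, Fyb, Nudt16l1 and Fam13a, were at 0.09 to 0.13 against a spread of 0.24 for Phex, whose low values carry little pattern. The libraries of a tissue are not independent points of such a profile, so these are descriptions.

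Bone matrix genes that accompany osteocalcin were also higher in the marrow cultures. Spp1 encodes osteopontin and was at 26352.82, 38359.92 and 84015.17 TPM in the fBM-MSCs, 1562.27 and 9037.28 in the vBM-MSCs, and between 160.49 and 384.30 in the non-bone marrow MSCs (adjusted p = 1.84e-06). Ibsp, bone sialoprotein, was at 218.38, 286.39 and 1009.69 TPM in the fBM-MSCs and 16.92 and 320.80 in the vBM-MSCs, and at most 0.08 elsewhere (adjusted p = 2.68e-06). Dmp1, an osteocyte matrix protein, reached 159.13 TPM in fBM-MSC replicate 3 and 0.80 in vBM-MSC replicate 1, and at most 0.20 in the other tissues (adjusted p = 1.01e-05). In contrast Col1a1, the main collagen of bone and of other connective tissue, differed little, with 725.35 TPM in vBM-MSC replicate 1 inside the range of the A-MSCs (log2 fold change 0.79 ± 0.24, adjusted p = 0.0177). Without vBM-MSC replicate 2 its call was lost (adjusted p = 0.0536). Mepe, another osteocyte matrix protein, had 20 counts in the fBM-MSCs and none elsewhere and was not tested.

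Lists of related genes, chosen with earlier results of these data known, were then counted. Of 28 tested bone matrix protein genes, 24 rose and 1 fell in bone marrow relative to other MSCs, with a median log2 fold change of 1.06 against 0.03 for all tested genes. After Spp1 the most abundant were Mgp, matrix Gla protein (3.86 ± 0.18, adjusted p = 8.41e-08), which was lower in fBM-MSCs than in vBM-MSCs (-1.61, adjusted p = 0.00202), and Sparc, osteonectin (0.60 ± 0.12, adjusted p = 0.00157). Within marrow 7 genes of that list were lower in fBM-MSCs and 1 higher, beside 7.56 and 5.24% of all tested genes. Of 16 tested osteocyte genes, 10 were higher and none lower in bone marrow MSCs (median 1.71). Within marrow, 5 of them were higher and 1 lower in fBM-MSCs. Capg was higher in bone marrow MSCs (0.76 ± 0.12, adjusted p = 0.000285), while Pdpn (-0.14 ± 0.18, adjusted p = 0.543) and Cd44 (0.51 ± 0.20, adjusted p = 0.0558) did not pass, the latter except without fBM-MSC replicate 3 (adjusted p = 0.000338) or vBM-MSC replicate 2 (0.0463).

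Of 12 tested genes of mineralization and phosphate handling, 7 were higher and 2 lower (median 0.94). Phospho1, the phosphatase of matrix vesicles (adjusted p = 0.00863, and 0.0563 without vBM-MSC replicate 2), and Enpp1, which makes the pyrophosphate that Alpl breaks down (log2 fold change 3.18 ± 0.33, adjusted p = 1.61e-05), were both higher in bone marrow MSCs. Anxa5, an annexin of matrix vesicles, was higher (1.01 ± 0.16, adjusted p = 0.000384), Anxa6 lower (-0.69 ± 0.15, adjusted p = 0.00242) and Anxa2 without a call (adjusted p = 0.24). Of the endopeptidases related to Phex, 2 of 3 tested were higher: Mme (8.33 ± 0.78, adjusted p = 7.26e-06) and Ece1 (1.26 ± 0.15, adjusted p = 5.27e-05). Ece2 had a log2 fold change of 0.05 ± 0.11 (adjusted p = 0.757).

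Among 34 tested osteoblast transcription factors other than the members, 14 were higher and 5 lower (median 0.46). The most abundant were Atf4 (-0.27 ± 0.17, adjusted p = 0.213), Fosl1 (-0.10 ± 0.11, adjusted p = 0.481) and Junb (0.44 ± 0.17, adjusted p = 0.0477). Junb lost its call without any of 6 single libraries (adjusted p = 0.0642 to 0.19), and Atf4 passed without fBM-MSC replicate 3 (0.000942). Of 14 tested receptors, relatives and Wnt targets of sclerostin, with the Sost neighbour Dusp3 counted among them, 9 were higher and 1 lower (median 0.75). They include Lrp4, a receptor that anchors sclerostin (3.81 ± 0.59, adjusted p = 0.000271), and Ctnnb1, beta-catenin (0.42 ± 0.09, adjusted p = 0.00278), while Wisp1 did not pass (0.06 ± 0.12, adjusted p = 0.741). Of 20 tested receptors for bone-forming hormones and growth factors, 9 were higher and 3 lower (median 0.71). Fgfr1 was higher (0.82 ± 0.19, adjusted p = 0.00387), and Osmr and Il6st did not pass (adjusted p = 0.392 and 0.917), although Osmr did without fBM-MSC replicate 3, at a lower level in bone marrow MSCs (-0.38, adjusted p = 0.0172).

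**Figure D4:**
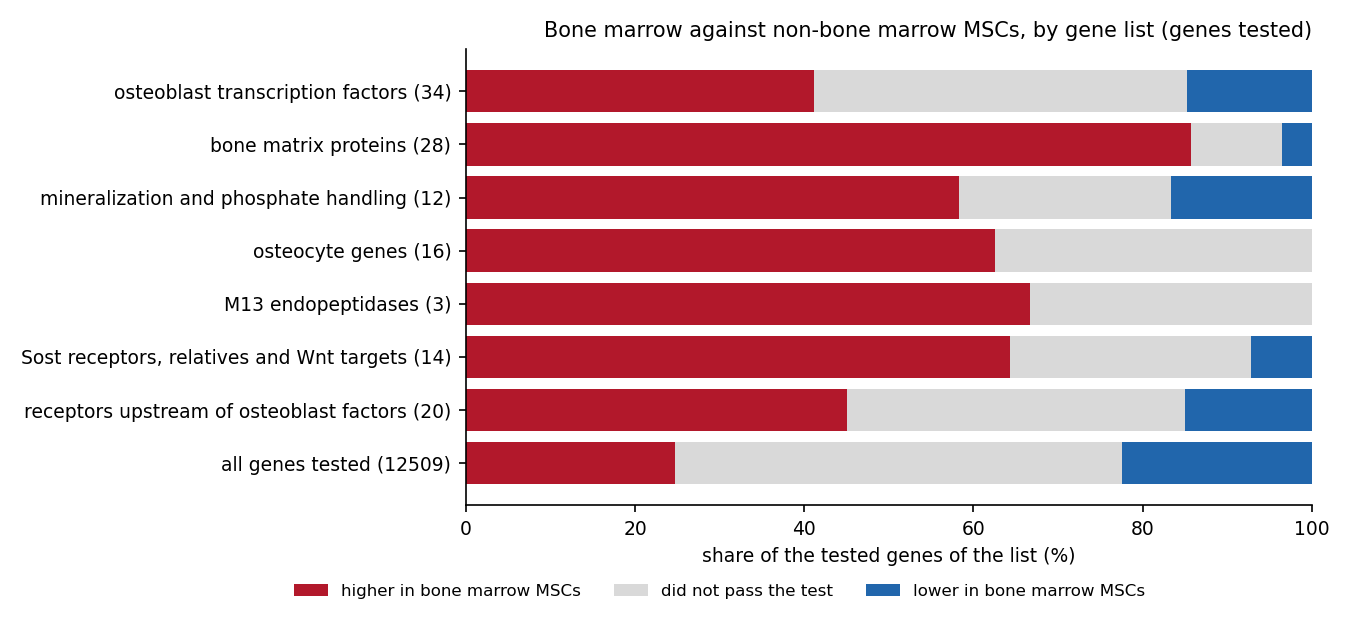
Share of the tested genes of each list (%, number tested in brackets) that were higher, lower or not called in bone marrow against non-bone marrow MSCs (edgeR, adjusted p under 0.05). In the bone matrix list 24 of 28 genes were higher, and in all tested genes 24.8%.

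Markers of other cell types were counted in the same comparison of marrow with other MSCs, and not every list followed the members within marrow. In that comparison 24.8% of all tested genes were higher and 22.4% lower. The lists hold few tested markers, and no test of a list was made. Of 7 tested chondrocyte markers, 5 were higher in bone marrow MSCs and 1 was lower, and the TPM of the 10 markers summed to 52.3, 17.4 and 108 in the fBM-MSCs, 130 and 200 in the vBM-MSCs and 1.99 to 11.6 elsewhere, so that both vBM-MSC libraries were above the fBM-MSC libraries, unlike for the members. Comp, the highest of them, had its peak in vBM-MSC replicate 1 and did not differ between the marrow tissues by the test (log2 fold change -1.17, adjusted p = 0.417). Of 4 tested osteoclast markers, 2 were higher, and the 7 markers summed to 204 to 317 TPM in the fBM-MSCs, 141 and 257 in the vBM-MSCs and 60.0 to 72.7 elsewhere. Ctsk, cathepsin K, made up most of that sum. The other called marker was Atp6v0d2, a proton pump subunit of osteoclasts, at 19.6 TPM ± 4.1 (SD, n = 3) in the fBM-MSCs and 0 in every non-bone marrow library. It was higher in bone marrow than in other MSCs (adjusted p = 3.66e-05), and no fold is given against a group without counts. For fBM-MSCs against vBM-MSCs its log2 fold change was 5.43 ± 0.71 (adjusted p = 0.00355). The defining marker Acp5 was at most 2.77 TPM, in an A-MSC library, and Dcstamp was at 0 in every library. Atp6v0d2, Acp5 and Dcstamp were named here after their values were seen. Macrophage markers summed to 36.4 to 49.7 TPM in the fBM-MSCs, 21.8 and 42.2 in the vBM-MSCs and 10.2 to 24.8 elsewhere, with 1 of 3 tested higher (Lyz2) and 1 lower. Cd34, a marker that MSCs should lack, was higher in bone marrow MSCs (3.43 ± 0.47, adjusted p = 0.000114), at 54.0 TPM ± 38.1 (SD, n = 3) in the fBM-MSCs and 7.39 TPM ± 0.0919 (SD, n = 2) in the vBM-MSCs. The negative surface markers, of which Cd34 is the main part in the fBM-MSCs, summed to 79.2, 72.7 and 10.3 TPM there, lowest in replicate 3, where the members peaked. The part of such cells in the members' values was not tested. Of the adipocyte markers 2 of 3 tested were higher in bone marrow MSCs, but their TPM summed to 27.1 to 77.0 in the 5 marrow libraries, 4.94 to 6.75 in the P-MSCs and at least 46.5 in the A-MSCs, 2 of whose 3 libraries were above every marrow library. Mesothelial markers were lower in 5 of 7, endothelial in 3 of 5 and muscle in 2 of 2, and no tested marker of these last 3 lists was higher. The single tested epithelial marker was not called, and no erythroid marker passed the filter.

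Chromatin accessibility was described from the lists of regions at a −log10 q of at least 7, on chromosomes 1 to 19. A promoter is counted as accessible where a summit lies within 1 kb of a start site. Phex, on the X chromosome, is outside these lists. Such a summit was found in fBM-MSCs for Dlx5 (13.98-fold over background, at -61 bases from the start), Dlx3 (6.25-fold), Bglap2 (5.89-fold) and Dlx6 (5.52-fold). In vBM-MSCs only the Dlx5 promoter had one (7.36-fold), in A-MSCs only that of Dlx6 (7.36-fold), and in P-MSCs none of the members. These counts of 4, 1, 1 and 0 members stand beside 86.4, 88.2, 89.0 and 88.1% of all tested genes with a summit at the promoter. At a −log10 q of at least 20 they were 1, 0, 0 and 0 members, and with all listed summits 5, 2, 3 and 2, so the differences between tissues depend on the threshold. Sp7, Alpl, Bglap and Sost had no promoter summit at that threshold in any tissue, although Bglap and Alpl were among the abundant transcripts of the fBM-MSCs. The authors kept uniquely aligned reads only, and its part in the values of the Bglap locus was not tested. Dlx6 had a summit in A-MSCs but no RNA count there.

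Around the members, within the gene or 50 kb of it, 65 merged regions were found, of which the fBM-MSC list held 43, the vBM-MSC list 31, the A-MSC list 37 and the P-MSC list 28. Of the 65, 22 were on bone marrow lists only, where 22.0% of all regions of the genome were, and 13 on the A-MSC or P-MSC lists only (24.0% of all regions). A set of 6 regions was on both bone marrow lists and on no other, 9.23% of those near members against 3.81% of all regions. With 1 pooled list per tissue, these shares have no replicate error and no test. The 6 comprised the Dlx5 promoter, an intron of Sp7 (8.09-fold in fBM-MSCs and 10.3-fold in vBM-MSCs), an intron of Alpl (15.45 and 8.09-fold), an intron of Slc25a44 on the side of Bglap (7.36 and 12.14-fold), and a pair around Dlx3. The Dlx3 pair lay 6627 bases downstream of the Dlx3 start (9.93 and 6.62-fold) and in an exon of the non-coding gene A730090H04Rik beyond Dlx4 (14.71 and 8.46-fold). Of all 65, 13 were on the 4 lists and 27 on a single list. The strongest by Dlx6, in an intron of Dlx6os1, was on all 4 lists, at 18.76 and 23.55-fold in the fBM and vBM-MSCs and at 13.98 and 6.62-fold in the A and P-MSCs. For Sost, a region at -2050 bases from its start was on the vBM-MSC list alone (6.99-fold), where the gene had 5 counts.

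**Figure D5:**
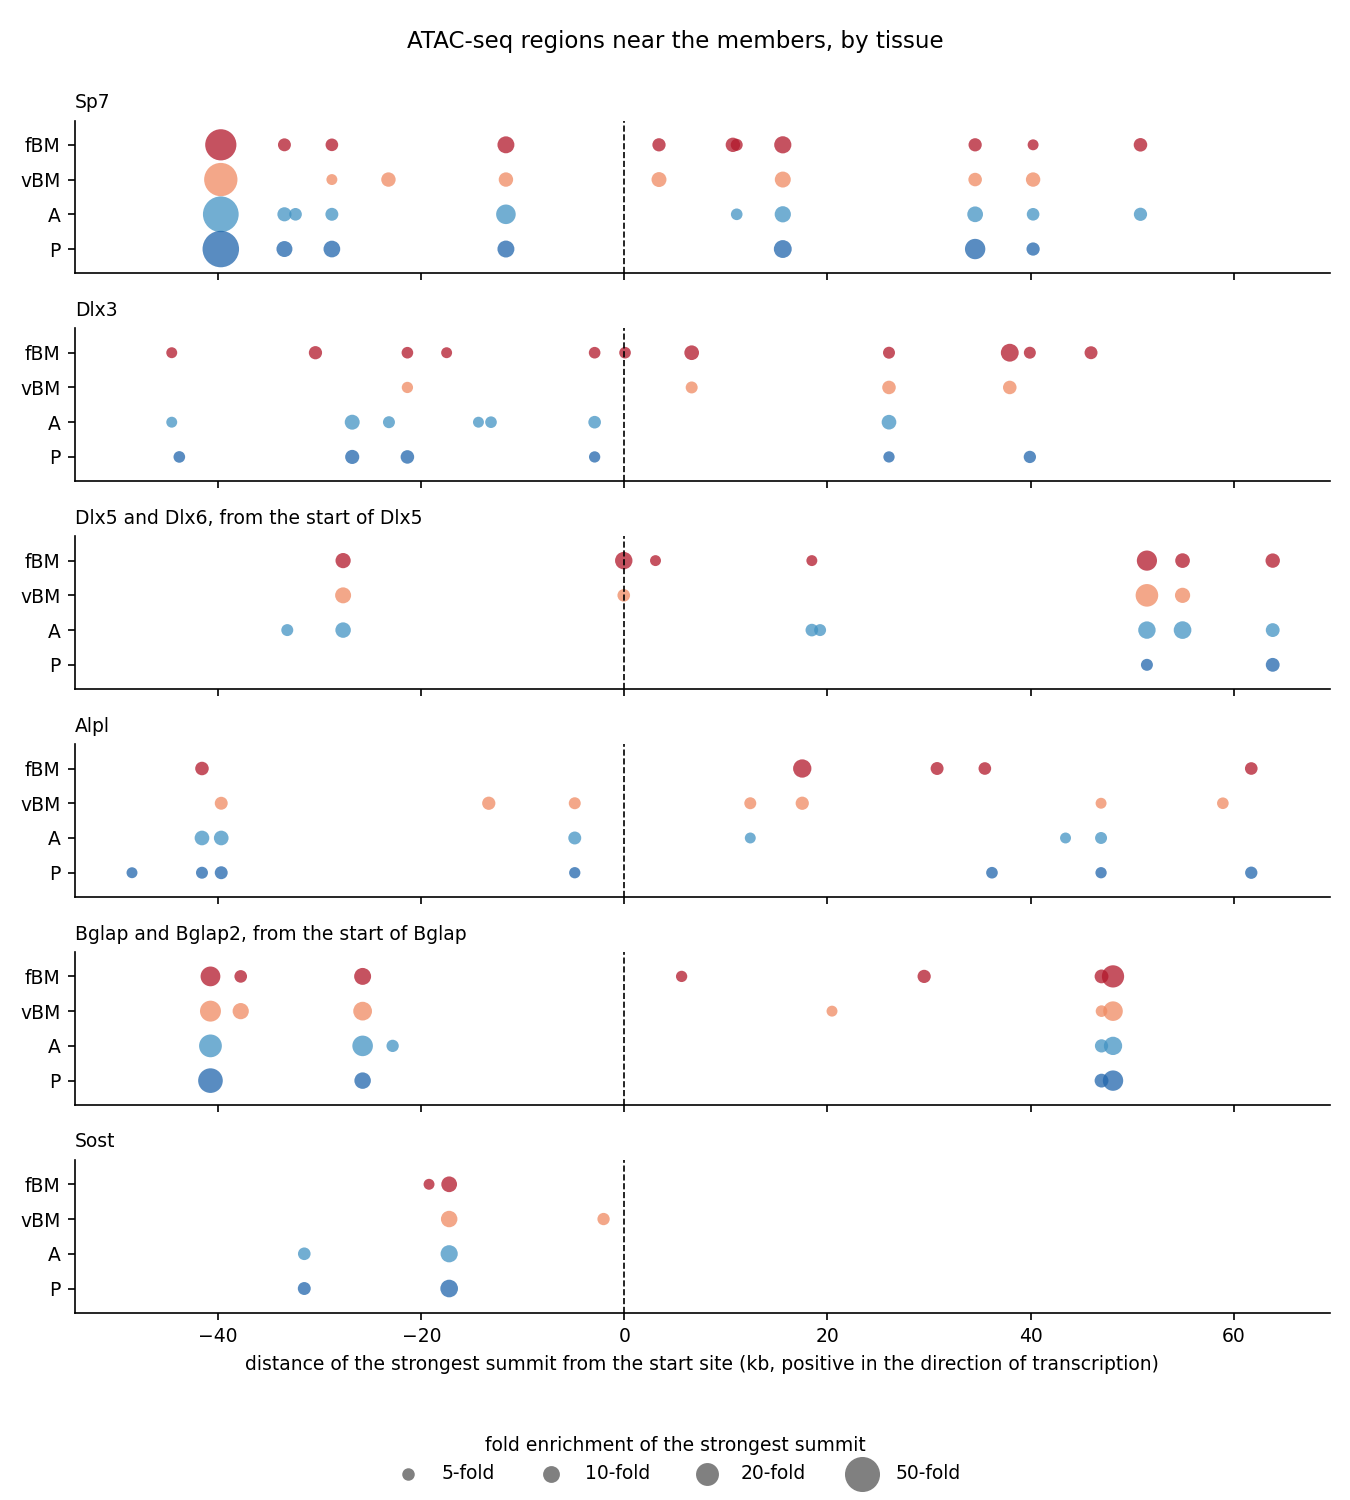
ATAC-seq regions near the members by tissue: distance of the strongest summit of each region from the start site of the gene (kb, positive along the direction of transcription, for Alpl from the nearer of its 2 starts), with point area in proportion to fold enrichment. The Dlx5 promoter, the intron of Sp7 and 1 region in an intron of Alpl carry points in the fBM and vBM rows only, and the promoter of Sp1, the gene upstream of Sp7, has the largest points in all 4 rows.

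The windows of 201 bases centred on the strongest summit of those regions are shown, for the 4 outside promoters at the Alpl, Sp7 and Dlx3 loci, because they stand on both marrow lists and on no other. The last of them is 37950 bases from the Dlx3 start and nearer to that of Dlx4. Each is given on the plus strand of mm10, with RUNX letters in capitals where a match was found.
Alpl intron, chr4:137748860-137749060: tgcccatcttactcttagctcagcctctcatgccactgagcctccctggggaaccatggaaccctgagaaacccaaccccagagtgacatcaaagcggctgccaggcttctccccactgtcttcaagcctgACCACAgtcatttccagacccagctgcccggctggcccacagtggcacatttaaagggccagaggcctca
Sp7 intron, chr15:102362824-102363024: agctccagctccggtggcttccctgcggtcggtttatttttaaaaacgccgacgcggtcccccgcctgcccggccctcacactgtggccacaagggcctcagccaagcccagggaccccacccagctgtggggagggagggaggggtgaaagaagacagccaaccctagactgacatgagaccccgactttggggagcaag
Dlx3 downstream, chr11:95126644-95126844: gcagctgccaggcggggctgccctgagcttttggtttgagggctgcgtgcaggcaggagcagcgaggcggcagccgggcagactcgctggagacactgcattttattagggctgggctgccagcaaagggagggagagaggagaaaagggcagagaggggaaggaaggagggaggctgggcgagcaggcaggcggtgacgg
Dlx3 and Dlx4 locus, exon of A730090H04Rik, chr11:95157967-95158167: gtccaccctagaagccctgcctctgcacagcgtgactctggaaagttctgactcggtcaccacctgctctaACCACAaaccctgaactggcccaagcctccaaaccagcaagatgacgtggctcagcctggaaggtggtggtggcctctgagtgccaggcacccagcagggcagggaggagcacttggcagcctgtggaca
The letters TGTGGT, on either strand, were found in the Alpl intron window and in that of A730090H04Rik, and not in the Sp7 or Dlx3 downstream windows. That is 2 of the 6 regions, beside 22.1% of all fBM-MSC and 17.7% of all vBM-MSC summit windows, and 17.9 and 16.8% of those from A and P cultures. TAATTA and GGGCGG were in none of the 6, and in 3.03 and 18.7% of all fBM-MSC windows. Of the 65 regions near members, 14 held RUNX letters (21.5%), with 6 of the 22 on bone marrow lists only and 2 of the 13 on the A-MSC or P-MSC lists only.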

How the data were processed

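RNA-seq (Smart-seq2, which copies polyadenylated RNA and keeps neither strand nor molecular identifiers) and ATAC-seq were read from the processed values. By the study's methods and the submitters' processing notes, the authors ran RSEM with STAR on mm10. The deposited expected counts are RSEM estimates without normalization. RSEM scaled the TPM that the authors deposited for effective length, and likewise the FPKM, which gave no result here. For ATAC-seq the authors trimmed reads (Trim Galore), kept unique Bowtie alignments, removed duplicates (Picard), applied the Tn5 shift and called peaks with MACS2 on 6 samples pooled per tissue, from 3 replicates. The deposited lists hold the fold enrichment as a ratio, the −log10 q, a score and the summit offset. Tool versions are not given in the sources used here.

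Expected counts were rounded and tested in edgeR 4.0.16 under R 4.3.3 with TMM factors, by two-sided quasi-likelihood F tests in 1 model of 4 tissues and 11 libraries. Genes needed at least 1 CPM in at least 2 libraries (12509 genes), and p was adjusted by Benjamini-Hochberg over all of them. The contrast of bone marrow with non-bone marrow MSCs weighs each tissue equally, whereas ratios of mean CPM weigh each library equally. A fold against a group without counts used a floor of 3 counts over the group, and floors cover counting error only. On simulated data with 200 genes changed by 4-fold among 12509, equally in both marrow tissues, the bone marrow comparison recovered 84.5%, with 3.43% of calls false. The simulated libraries were independent and few of their genes changed. The data differ in both, so these rates do not carry over to them. Alternatives used DESeq2 1.42.0 and limma 3.58.1 (log2(TPM + 1) or log2(TPM + 0.1)).

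Summits were placed by RefSeq on GRCm38.p6, whose chromosomes are those of mm10. Regions of the 4 lists were merged where they overlapped by at least 1 base. Python 3.11.15, pandas 2.3.3, numpy 2.4.6, pysam 0.24.0 and matplotlib 3.10.9 were used.

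The members and gene lists were chosen with earlier results of these data known. Named genes are the members, fixed partners and neighbours, the 3 most abundant of each pathway list, the highest marker of each list that is named and the 3 genes most like each member. Replicate numbers do not state a shared animal, and were not used as pairs.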

Additional observations from a re-analysis of the deposited data

How the results depend on the processing

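Of 1144 alternative or reported values for single members, 1077 kept direction and side of the threshold, 27 passed it newly, 34 lost it and 6 changed sign. Of 366 counts, 319 stayed within 1.5 times. The 6 were log2 differences that did not pass: Alpl, fBM-MSCs against vBM-MSCs, -0.38 without fBM-MSC replicate 3. Phex there was -0.13 without fBM-MSC replicate 3 and vBM-MSC replicate 2. Dlx3 in vBM-MSCs against A-MSCs was 0.63 without vBM-MSC replicate 1 and 0.40 without A-MSC replicate 1. Phex in vBM-MSCs against P-MSCs was -1.62 without vBM-MSC replicate 1 and -0.13 without P-MSC replicate 1. Over all leave-outs of 1 library these values ranged from -0.38 to 2.72, 0.48 to 3.40, -2.23 to 0.63 and -1.62 to 2.0. Leaving out 1 library gave 6 to 8 members called for bone marrow against other MSCs and 0 to 5 for fBM-MSCs against vBM-MSCs (610 to 1961 of all genes). It gave 1 to 2 for A-MSCs against P-MSCs and 6 to 8 for fBM-MSCs against A-MSCs. For vBM-MSCs it gave 2 to 5 against A-MSCs and 3 to 6 against P-MSCs. Members called between fBM-MSCs and vBM-MSCs were 2 in the reported test, 1 with DESeq2, 5 with limma on log2(TPM + 1), 4 on log2(TPM + 0.1), 4 without a filter and 0 with only the libraries of the contrast (305 of all genes). With only the libraries of the contrast, 3 members were tested for vBM-MSCs against A-MSCs and 3 against P-MSCs, and 2 were called in each. For A-MSCs against P-MSCs, DESeq2 called 3. The alternative without fBM-MSC replicate 3 and vBM-MSC replicate 2 was chosen after seeing the data. It called 5 members between the marrow tissues (2293 of all genes), 3 between adipose and lung, and 3 for vBM-MSCs against A-MSCs. Also added after seeing the data, leave-outs of 1 library for 37 other named genes and the osteocalcin sum kept 22 of 26 calls for bone marrow against other MSCs and 7 of 17 within marrow wherever the gene passed the filter. The cause of these shifts was not tested.

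Replicate numbers were shared by all tissues, but no label ties them to a mouse, so they were not taken as pairs. The deviations of same-numbered fBM-MSC and vBM-MSC libraries were correlated at 0.125 and 0.00727. The deviations of 2 vBM-MSC libraries from their mean mirror each other, so these values cannot show or exclude a shared mouse. With the replicate block, 7 members were called for bone marrow against other MSCs, 2 between the marrow tissues and 2 for A-MSCs against P-MSCs. Between the marrow tissues those 2 were Bglap and Sp7 (adjusted p = 0.0187 for Sp7), and Dlx3 did not pass (0.0713).

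Regions at a −log10 q of at least 20 near members numbered 12, 11, 12 and 10 on the fBM, vBM, A and P-MSC lists, 5 of them on bone marrow lists only. With all listed summits they numbered 76, 56, 64 and 55, and within 100 kb 72, 56, 68 and 54. Members with a promoter summit were 1, 0 and 0 on the fBM, vBM and A-MSC lists at the stricter threshold. With all summits they were 2, 3 and 2 on the vBM, A and P-MSC lists. Phex, Sost and Dlx6 had at most 157 counts in any library.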
